A study of Sus scrofa with 4 samples.

Results

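Potassium channel genes were examined in porcine fetal fibroblasts (PFFs), a cell type that is not electrically excitable. The set held every protein-coding gene of the RefSeq table of Sscrofa11.1 on chromosomes 1 to 18 whose symbol begins with KCN. That gave 90 of 18722 protein-coding genes on these chromosomes. Another 4 KCN genes, 2 on chromosome X and 2 on unplaced sequences, were not analysed here. Open chromatin had been profiled by ATAC-seq, which relies on the enzyme Tn5 to insert adapters where DNA is accessible. All cells were skin fibroblasts under serum starvation. The 2 control libraries (control 1 and control 4) are labelled wild type and pTK-642, and the 2 BRG1 libraries (BRG1 1 and BRG1 4) are labelled BRG1-overexpressed and pTK-642-BRG1. BRG1 is an ATPase of a chromatin remodelling complex, and the series asked how raising it in donor cells for cloning affects chromatin openness. The sources used here do not give the level of BRG1 or the promoter of the vector. Whether the paired libraries within a group derive from separate cultures is not stated, so the p-values reflect sample-to-sample spread that could be technical.

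Potassium channels let potassium ions cross the membrane down their gradient. In nerve and muscle they end the action potential and set the pace of firing, while in most other cells they hold the resting potential and help to set cell volume. The pore-forming subunits fall into voltage-gated, calcium- or sodium-activated, inward rectifier and two-pore-domain channels. Modifier subunits resemble voltage-gated ones but act only in company with them, and auxiliary subunits bind the pore proteins and change their gating or their transport to the membrane. Fibroblasts are known to carry some of these channels, among them the large-conductance channel of KCNMA1 and the intermediate-conductance channel of KCNN4.

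A gene end was taken as open in a library when a peak of that library's deposited list overlapped the stretch within 1 kb of the lower or the higher coordinate of the gene model. The gene table gives no strand, so the promoter end cannot be told from the other end. Peaks that overlapped the model but neither end are called gene-body peaks. The strength of a peak is given as its percentile by the authors' −log10 p-value within its own list, so that 100 is the strongest peak of that library. The lists differ in length, so a rank that differs between libraries shows no change by itself. Members called strongest or weakest were ranked by the mean percentile over the 4 libraries. Values given as a run of 4 are in the order control 1, control 4, BRG1 1, BRG1 4. For gene ends each value is that of the library's strongest peak at either end, so a run can mix both ends. A missing peak means that none was called at that library's depth, which is unknown. A peak shows accessibility and does not measure expression. The lists held 107475 and 105954 peaks in control 1 and control 4, and 96367 and 90851 in BRG1 1 and BRG1 4. The library BRG1 4 stood apart by a median peak width of 541 bp against 396 to 404 bp in the others.

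Most potassium channel genes had an open end in these fibroblasts, but their peaks were of middling rank. A gene-end peak was called in all 4 libraries at 53 of 90 KCN genes (58.9%), against 68.9% of all protein-coding genes. No library had one at 27 of 90 (30.0%), against 25.2% of all genes, and 10 had one in 1 to 3 libraries, where the share of all genes was 5.87%. Of the 53 genes, 51 shared at least 1 region called in all 4 libraries at an end. KCNH7 and KCNK15 instead had different end regions in different libraries. Both ends were open in all 4 libraries at 5 of 90 genes, against 9.12% of all genes.

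**Figure D1:**
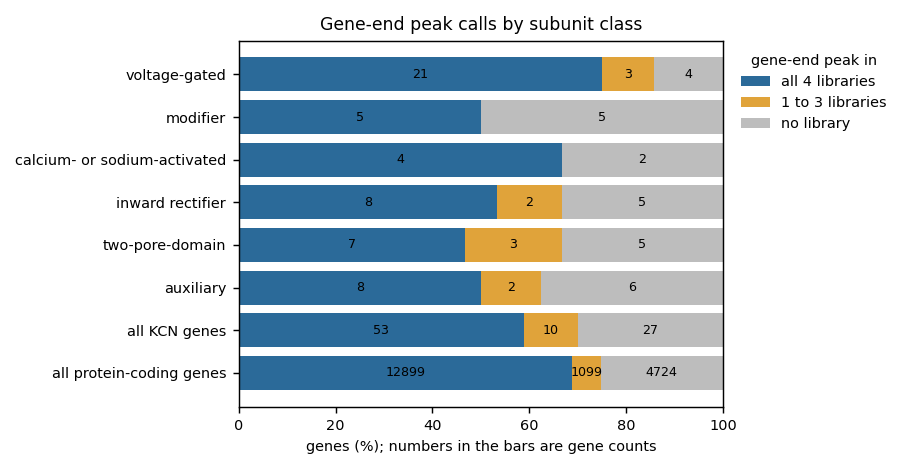
Share of genes (horizontal axis, percent) with a gene-end peak in all 4 libraries, in 1 to 3 libraries or in no library, for each subunit class, for the 90 KCN genes and for 18722 protein-coding genes. The voltage-gated class has the longest blue bar, 21 of 28 genes, and the modifier class is split evenly, 5 and 5 of 10.

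The rank of these peaks differed from that of other genes more than their number did. Among genes open in all 4 libraries, the mean percentile of the strongest gene-end peak had a median of 56.7 for the 53 KCN genes and of 89.2 for all 12899 such genes. Within single libraries the medians for KCN genes with an end peak were 57.7 and 54.6 in control 1 and control 4, and 54.2 and 47.5 in BRG1 1 and BRG1 4. The medians for all genes with an end peak lay between 87.8 and 89.3. A mean percentile of 90 or more was reached by 5 of 53, among them KCNAB2, KCNMB3, KCNK12 and KCNJ6, against 6151 of 12899 genes. A mean percentile under 25 was found for 6 of 53 KCN genes and 303 of 12899 genes. These are descriptions of the list beside all genes, without a test.

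**Figure D2:**
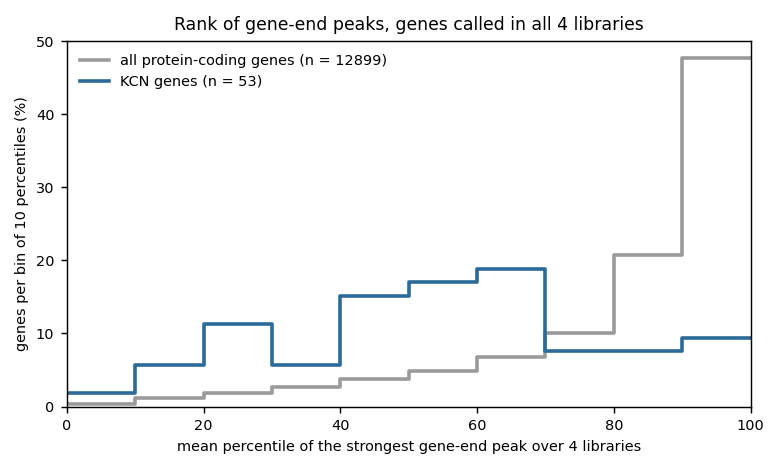
Distribution of the mean percentile of the strongest gene-end peak (horizontal axis) as the percent of genes in each bin of 10 percentiles (vertical axis), for genes open in all 4 libraries. The grey line of all genes rises steeply to the last bin, while the blue line of the 53 KCN genes is spread over the middle bins around its median of 56.7.

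Neighbouring genes share some of these ends. The end windows of 20 of 90 KCN genes met an end window of another protein-coding gene, and 12 of these 20 were open in all 4 libraries. The 41 open KCN genes without such a neighbour also had a median percentile of 56.7. The 89.2 of all genes was not restricted to genes without such a neighbour. The share of all genes with a shared end window is not given here either. A peak in a shared window cannot be assigned to either gene.

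Voltage-gated genes, whose channels open when the membrane is depolarised, were the class with the largest share of open ends, 21 of 28 (75%). Of all protein-coding genes 68.9% were open in all 4 libraries, and the shares of the classes that follow stand beside that same value. The classes held 6 to 28 genes, and the order of their shares was not tested. KCNH6, an ERG-type channel gene, was among the strongest of the class at 88.5, 91.3, 90 and 82.0 in control 1, control 4, BRG1 1 and BRG1 4, and its end windows met those of DCAF7 and LOC100515049. KCNC1, a fast channel known from rapidly firing neurons, stood at 85.1, 85.9 and 86.6 in control 1, control 4 and BRG1 1 and at 58.5 in BRG1 4, which was the lowest of the 4.

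Genes of the Kv1 family that lie near each other could differ. KCNA5, KCNA1 and KCNA6 lie on the same stretch of chromosome 5, and all 3 had an end peak in every library. KCNA1, a channel of myelinated axons, stood at 36.3, 36.5, 21.4 and 39.5 in control 1, control 4, BRG1 1 and BRG1 4, so the groups overlapped. On chromosome 4, KCNA3 was open at its end in all 4 libraries at percentiles from 29.8 in BRG1 4 to 67.7 in control 1. KCNA2, its neighbour and another axonal channel, had no end peak in any library, and the nearest peak lay 2438 bp away in 3 libraries and 2264 bp in BRG1 4. Inside its model KCNA2 held 5, 4, 4 and 5 body peaks in control 1, control 4, BRG1 1 and BRG1 4. KCNA10, a gene of 1.68 kb in the same cluster, had no peak at all in any library.

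KCNH2 and KCNQ1, 2 delayed rectifier genes of the heart, had end peaks in every library. KCNH2, which encodes the rapid delayed rectifier of the heart, stood at 61.4, 53.0, 54.2 and 34.1 in control 1, control 4, BRG1 1 and BRG1 4. The value of control 1 came from the lower-coordinate end and the others from the higher one, where control 1 stood at 48.6. In BRG1 4 the lower-coordinate end of KCNH2 had no call, unlike in the other libraries. KCNQ1, which encodes the slow delayed rectifier, had weak end peaks at 30.3, 20.6, 13.7 and 18.1. The KCNQ1 value of control 4 came from the lower-coordinate end and the others from the higher one. At the higher-coordinate end alone the values were 30.3, 8.08, 13.7 and 18.1. At the lower-coordinate end they were 8.12, 20.6, 8.13 and 0.715, so the groups overlapped at each end. The weakest end calls of the class by mean percentile were those of KCNH7, a nerve ERG-type channel gene, at 5.94, 9.88, 1.71 and 22.7. Its end windows met those of GCA.

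Of 28 voltage-gated genes 4 had no end peak in any library, among them KCNA2, KCNA10 and KCNC2. KCNC2, a gene of 209 kb, held 1 body peak in 3 libraries and 2 in BRG1 4. Absence of an end call therefore did not mean absence of open chromatin in the gene.

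**Figure D3:**
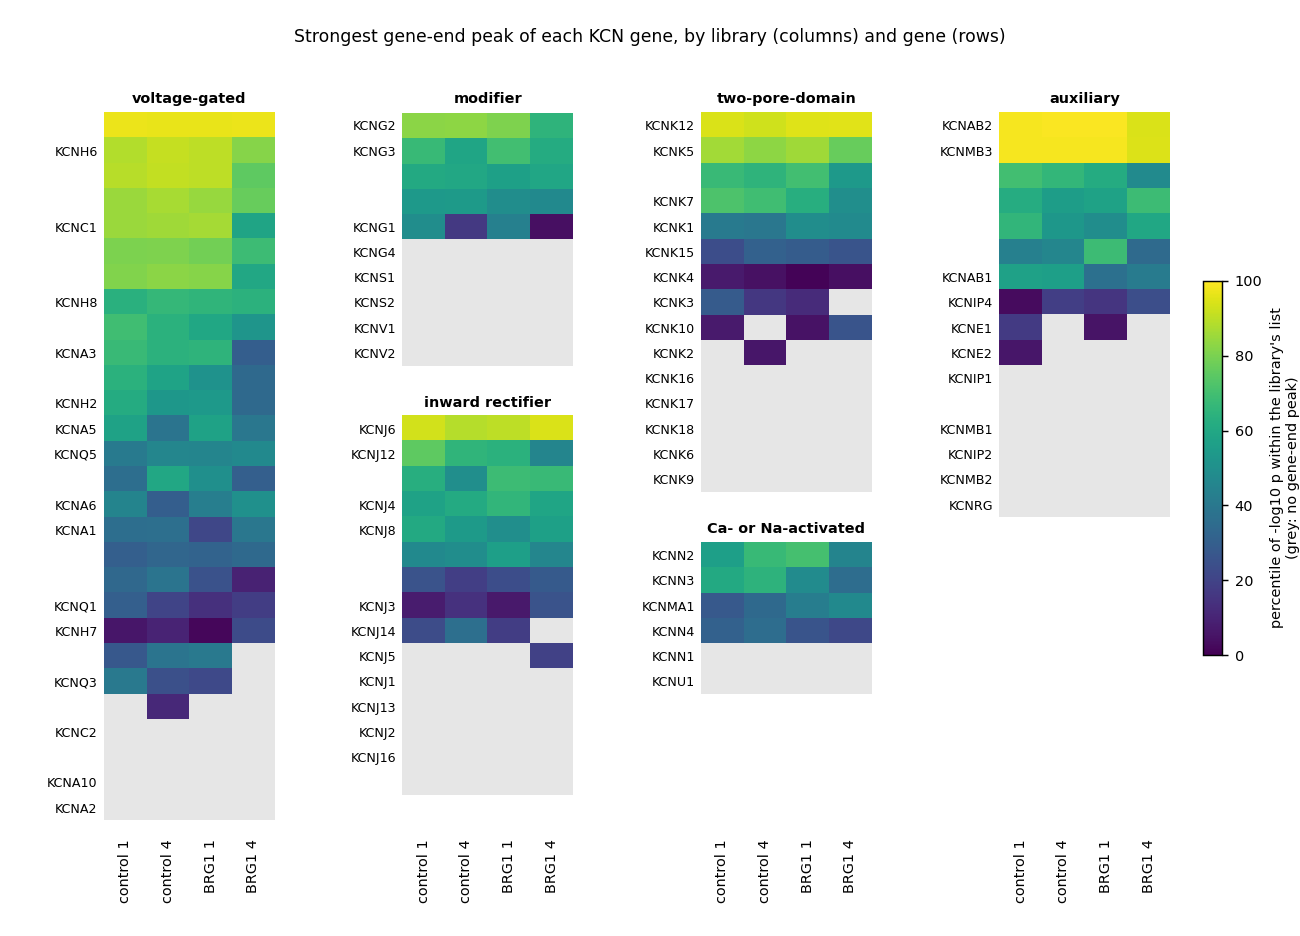
Percentile of the strongest gene-end peak (colour, 0 to 100 within each library's list; grey for no call) for each of the 90 KCN genes (rows, grouped by class) in each library (columns). Rows with 4 coloured cells are the 53 genes open in all 4 libraries, 10 rows mix grey and coloured cells, and KCNK12, KCNJ6, KCNAB2 and KCNMB3 are among the brightest rows. Only the rows of genes described in the text carry a name.

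Modifier genes were open at 5 of 10 (50%) and had no end peak in any library at the other 5. KCNG2 was the strongest at 82.5, 82.9, 80.5 and 65.0 in control 1, control 4, BRG1 1 and BRG1 4. KCNG3 followed at 67.2, 58.6, 69.9 and 61.6. KCNG1 was the weakest and the most uneven, at 49.1, 16.6, 43.4 and 3.97, so that number 1 of each group was high and number 4 of each group low. The 5 without a call, KCNG4, KCNS1, KCNS2, KCNV1 and KCNV2, are short genes of 7.13 to 19.3 kb, and each held at least 1 body peak in every library. KCNG4 held 2 body peaks in each library, the stronger at percentiles of 88.9, 92.7, 89.4 and 88.0. KCNS1 held 2, 1, 1 and 2.

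Calcium- or sodium-activated genes were open at 4 of 6. No KCNT gene, of the sodium-activated family, was among the 6. Classes were assigned by the beginning of the symbol, so the class name need not describe how KCNU1 is gated. KCNMA1, the large-conductance channel opened by calcium and voltage together, is on chromosome 14 from 79345382 to 80106337. Its end peak spanned the higher-coordinate end and was of modest rank, at 28, 34.2, 42.3 and 47.3 in control 1, control 4, BRG1 1 and BRG1 4. The BRG1 libraries ranked it above the controls, without overlap, as they did the end of KCNK1. Ends of other KCN genes separated the other way, among them KCNN4, KCNG2 and KCNAB1. With 2 libraries in each group such a separation was not tested for single genes and shows no change by itself. KCNN4, the intermediate-conductance channel of lymphocytes, red cells and fibroblasts, was low throughout, at 30.9, 35.9, 26.1 and 21.5. KCNN2 and KCNN3, small-conductance channels of neurons and muscle, ranked higher. KCNN2 stood at 56.6, 67.3, 70.4 and 45.1, and KCNN3, whose window met one of PMVK, at 60.9, 64.7, 48.3 and 35.6. The groups overlapped for KCNN2, and for KCNN3 the controls ranked higher. KCNN1, with 2, 3, 2 and 1 body peaks, and KCNU1, a channel of sperm with 8, 7, 7 and 7, had no end peak.

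Inward rectifier genes were open at 8 of 15 (53.3%). KCNJ6, a G-protein-gated channel of neurons, was the strongest at 93.2, 88.8, 89.9 and 94.2 in control 1, control 4, BRG1 1 and BRG1 4. The peak in control 1 ran across the higher-coordinate end on chromosome 13 from 201525791 to 201526644. KCNJ12 followed at 75.2, 65.4, 63.7 and 45.6, lower in each BRG1 library than in either control. KCNJ8, the pore of the ATP-sensitive channel of vascular cells, was at 60.7, 54.5, 49.5 and 56.8 and the groups overlapped. KCNJ3, which pairs with other G-protein-gated subunits in the heart, had the weakest open end of the class at 7.51, 14.1, 6.78 and 25.5.

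KCNJ2, the classical inward rectifier of heart and skeletal muscle, had no end peak, and the nearest peak lay 6836 to 6905 bp from an end. Its model, on chromosome 12 from 10351959 to 10380631, held a strongly ranked body region. It ran from 10361275 to 10363751, began 9.32 kb inside the model, and ranked at 94.6, 94.6, 92.8 and 95.9 in control 1, control 4, BRG1 1 and BRG1 4. The model of LOC110255979 overlaps that of KCNJ2. KCNJ16 and KCNJ1, of kidney epithelium, had no end peak either and held 3 or 4 body peaks in each library. KCNJ13, a gene of 9.79 kb that overlaps the model of GIGYF2, had no peak at all.

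Two-pore-domain genes, whose channels carry the background leak of potassium, were open at 7 of 15 (46.7%), against 68.9% of all genes. This was the lowest share of the 6 classes, though close to 5 of 10 modifier and 8 of 16 auxiliary genes. KCNK12 was the strongest, at 94.5, 92.7, 95.3 and 95.4 in control 1, control 4, BRG1 1 and BRG1 4. It also held a body region at 97.6, 97.4, 96.6 and 96.2, beginning 35.6 kb from its lower-coordinate end, so that its end and its body were both strongly open in every library. KCNK5, an acid-sensitive channel of epithelia, was at 86.0, 82.9, 85.9 and 76.8. KCNK4, a mechanically gated channel, had the lowest mean percentile of all 53 open genes, 4.32, from 7.27, 4.61, 1.14 and 4.26, and its windows met those of CATSPERZ. KCNK2, the mechanically gated relative of KCNK4, had an end peak in control 4 only, at 6.08, but held a body region at 84.4, 87.5, 80.2 and 87.4.

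Of the two-pore-domain genes without an end call, KCNK17 and KCNK18, a channel of sensory neurons, each held 2 body peaks in every library. KCNK6, on chromosome 6 from 47237665 to 47249178, and KCNK16 had no peak at the ends or in the model in any library. The nearest peak to an end of KCNK6 lay 2414 to 2419 bp away in all 4 libraries. In all, 5 of 90 KCN genes (KCNA10, KCNJ13, KCNK6, KCNK16 and KCNRG) had no peak of either kind, where the share of all genes was 14.3%.

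Auxiliary genes were open at 8 of 16 (50%), and their 2 strongest ends met windows of neighbours. KCNAB2, a cytoplasmic beta subunit of voltage-gated channels, was at 98.8, 99.3, 99.4 and 94.3 in control 1, control 4, BRG1 1 and BRG1 4, with an end window that met one of CHD5. KCNMB3, a beta subunit of the large-conductance channel, was at 98.6, 98.8, 98.5 and 94.6, with windows that met those of PIK3CA and ZNF639. KCNIP4, a calcium-binding partner of Kv4 channels, had the weakest open end at 3.09, 18.5, 15.3 and 24.0. KCNE1, the partner of KCNQ1 in the heart, had an end peak in control 1 at 17.0 and in BRG1 1 at 5.36, with none called elsewhere, while a body region was shared at 82.0, 80.6, 74.9 and 56.7.

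Auxiliary genes without an end call included KCNIP1 and KCNIP2. KCNIP1, a gene of 422 kb that contains the whole KCNMB1 model, held 24, 25, 25 and 19 body peaks in control 1, control 4, BRG1 1 and BRG1 4. Its strongest body region stood at 95.4, 95.6, 94.4 and 93.7. KCNIP2, the partner of the transient outward current in the heart, had a body region at 91.4, 90.3, 90.6 and 95.9. KCNMB2, a gene of 254 kb, held only 2, 4, 3 and 3 body peaks. KCNRG had no peak of either kind.

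The window of 1 kb decided some calls. Just inside it, the nearest peak to an end of KCNK7 lay 975, 964, 974 and 793 bp away in control 1, control 4, BRG1 1 and BRG1 4. Just outside it, the nearest peak to an end of KCNK9 lay 1078, 1035, 1046 and 1107 bp away. With a window of 3 kb, 71 of 90 KCN genes were open in all 4 libraries and 12 in none, against 78.3% and 16.5% of all genes.

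Open chromatin inside the models was common. Body peaks were called in all 4 libraries at 62 of 90 KCN genes (68.9%), against 48.9% of all genes. KCN genes are long, with a median length of 35.4 kb against 20.7 kb, and longer models hold more peaks. Among models of 200 kb and over, the median density of body peaks was 1.79 per 100 kb for 19 KCN genes and 3.16 per 100 kb for all 1189. Among models of 10 to 50 kb it was 7.50 per 100 kb for 33 KCN genes and 3.69 for all 7417. In that same length range 14 of 33 KCN genes had no end peak in any library, against 1500 of 7417 genes. The longest models had a share of open ends close to that of other genes of their length, 14 of 19 (73.7%) against 74.4%.

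KCNMA1 had the most body peaks of the set, with 46 and 45 in the controls and 41 and 34 in the BRG1 libraries. Its mean was 41.5, and 20 of 18722 genes had a higher one. The groups did not overlap, with fewer peaks in BRG1 libraries, whose lists were also shorter. KCNIP4, which spans 1134 kb, held 27, 26, 23 and 20. KCNQ5, a neuronal channel gene of 504 kb, held 21, 24, 20 and 21. At the other extreme KCNH8, of 429 kb, held 1 body peak in control 4 and none in the other libraries, and 22 of 1189 genes of 200 kb and over had as few. KCNIP1, close to KCNH8 in length, held 23.2 on average.

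**Figure D4:**
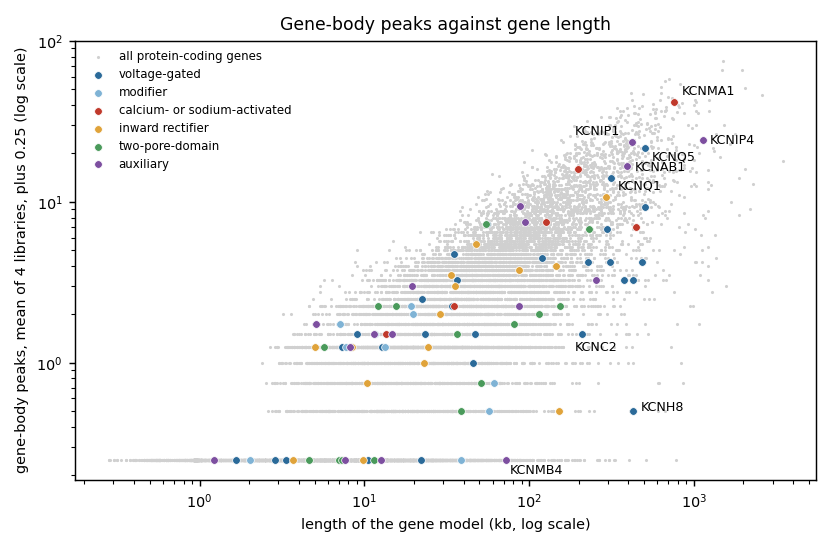
Gene-body peaks (vertical axis, mean of 4 libraries plus 0.25, log scale) against the length of the gene model (horizontal axis, kb, log scale) for 90 KCN genes coloured by class and all protein-coding genes in grey. KCNMA1 lies near the top of the grey cloud and KCNH8 near its lower edge for long genes.

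The strongest open region of a channel gene lay in the body more often than at an end, though bodies are also the longer stretch. Of 90 genes, 45 had their strongest shared region in the body, 34 at an end, and 11 had no region called in all 4 libraries. Over all genes the shares were 24.6%, 56.8% and 18.7%, with a shorter median model. Of the 27 KCN genes without any end peak, 18 held a body region in all 4 libraries, against 35.7% of the 4724 genes without one. Their models had a median length of 15.7 kb, against 10.2 kb. For 6 of the 27, among which were KCNG4, KCNIP1, KCNIP2, KCNJ2 and KCNU1, the mean percentile of a body region was 75 or more, against 18.6% of the 4724. No test was made of these shares, nor of the part of length in them. KCNQ1 was the clearest case among genes with weak ends. Its body region on chromosome 2 from 1683245 to 1684383, 7.92 kb from the lower-coordinate end, ranked at 97.4, 97.8, 97.4 and 97.1 in control 1, control 4, BRG1 1 and BRG1 4. The table gives 1 start and 1 end per gene, so a start site of a shorter transcript inside a model would count as body.

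**Figure D5:**
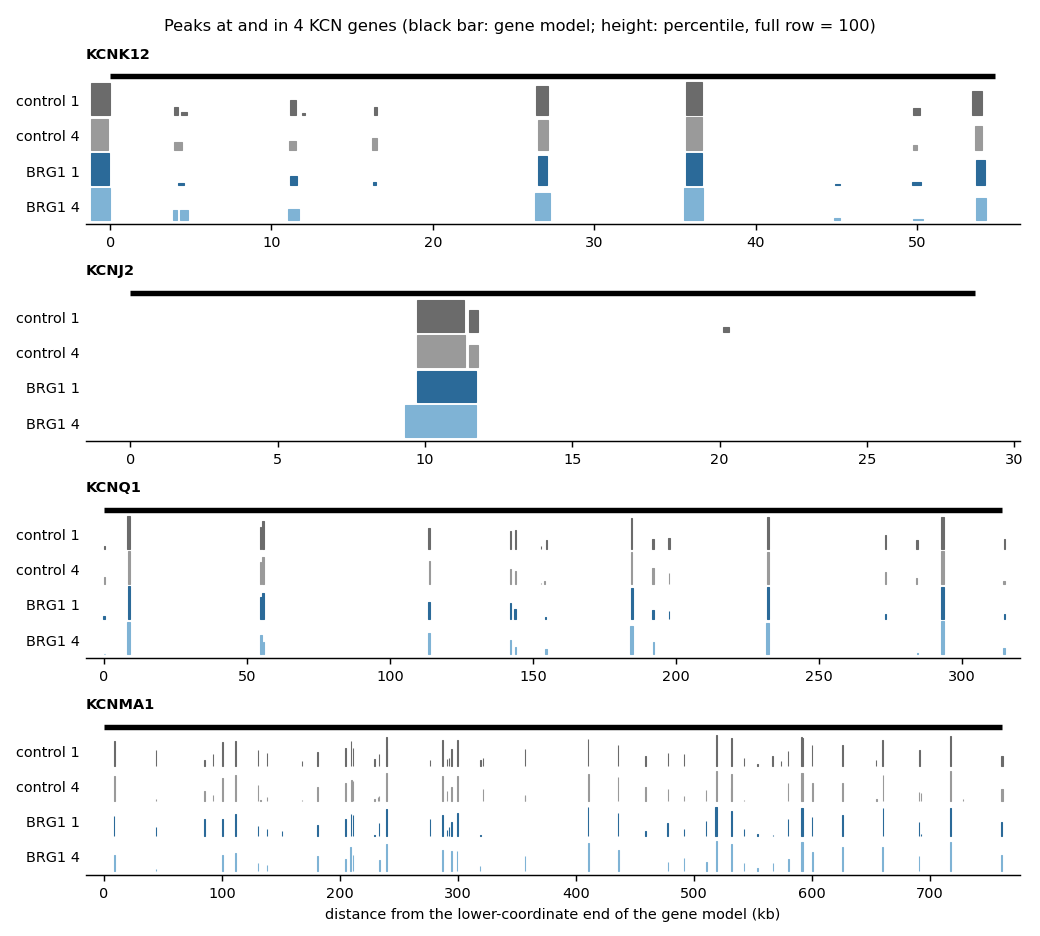
Peaks at and in KCNK12, KCNJ2, KCNQ1 and KCNMA1 in each library (rows), by distance from the lower-coordinate end of the model (horizontal axis, kb; each panel has its own scale). Bar height is the percentile within the library. KCNK12 has strong peaks at its lower-coordinate end and in its body, whereas KCNJ2 and KCNQ1 have their strongest regions inside the model and KCNMA1 has peaks along its length.

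The libraries were then compared to ask whether BRG1 over-expression went with more or fewer open potassium channel genes. An end peak was called at 60 and 59 KCN genes in control 1 and control 4, and at 59 and 55 in BRG1 1 and BRG1 4. In the same order, 72.4%, 72.3%, 71.8% and 71.0% of all genes had one. BRG1 libraries averaged 57 ± 2.83 genes and controls 59.5 ± 0.707 (SD over n = 2; p = 0.67 by a two-sided exact permutation test). BRG1 1 equalled control 4, so the groups touched and the lower mean came from BRG1 4. With lists of equal length the difference turned to 0.5 genes more in BRG1. With 2 libraries in each group the smallest p this test can give is 0.33.

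Counted as peaks, the set held 439 and 433 in the controls and 409 and 379 in the BRG1 libraries, at ends and in bodies together. BRG1 libraries averaged 394 ± 21.2 and controls 436 ± 4.24 (SD over n = 2; p = 0.33 by the same exact test, the smallest it allows). The ratio was 0.904, beside 0.877 for all peaks of the lists, and KCN peaks made up 0.408% to 0.424% of each list. The gap lay in gene bodies, where BRG1 libraries held 315.5 ± 17.7 peaks and controls 357 ± 2.83 (SD over n = 2; exact p = 0.33). At ends they held 78.5 ± 3.54 and 79 ± 1.41 (SD over n = 2; exact p = 1.00). Over all genes the number with an end peak also differed little, with a ratio of 0.987, beside 0.877 for all peaks of the lists. A gap that lay away from gene ends was thus not particular to KCN genes. With lists of equal length the difference in peaks at ends and in bodies turned to 4.5 more in BRG1. The length under peaks in the end windows averaged 42044.5 ± 846 bp over BRG1 libraries and 42564.5 ± 404 bp over controls (SD over n = 2; exact p = 0.67). That difference turned to 1893 bp more in BRG1 with lists of equal length, and to 78.5 bp more without BRG1 1.

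No KCN gene changed its end call between the groups in both libraries. Neither a BRG1-only end (a peak in both BRG1 libraries and neither control) nor a control-only end was found at any of the 90 genes. Among all genes these were rare, at 0.203% and 0.523%, so that fewer than 1 of 90 would carry either at those shares. Of the 10 genes with an end peak in 1 to 3 libraries, 4 lacked it in BRG1 4 alone, among them KCNJ14, KCNK3 and KCNQ3, a pattern of 1.20% of all genes. KCNK10 lacked it in control 4 alone, a pattern of 0.304% of all genes, and stood at 7.15 in control 1, 4.73 in BRG1 1 and 25.8 in BRG1 4. None lacked it in BRG1 1 alone or in control 1 alone, where the shares of all genes were 0.470% and 0.203%. KCNE2 had a peak in control 1 only, KCNK2 in control 4 only, KCNJ5 in BRG1 4 only, and KCNE1 in control 1 and BRG1 1.

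KCNJ14, KCNK3 and KCNQ3, without a call in BRG1 4, had modest peaks elsewhere. KCNQ3, a subunit of the neuronal M current, was at 40.6 and 24.3 in control 1 and control 4 and at 22.1 in BRG1 1. KCNK3, an acid-sensitive leak channel, was at 28.9, 16.3 and 12.3, and KCNJ14, an inward rectifier of motor neurons, at 23.2, 36.5 and 18. In each gene BRG1 1 thus carried a peak as the controls did. In BRG1 4 the nearest peak to an end lay 1121 to 3164 bp away, and that list was also the shortest and had the widest peaks. The part of the list's length and peak width in these missing calls was not tested.

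Regions were compared as well, after peaks of the 4 lists were merged where they overlapped by at least 1 bp. The ends and models of KCN genes held 502 regions, of which 301 (60.0%) were called in all 4 libraries, against 62.0% of 116392 regions on chromosomes 1 to 18. BRG1-only regions numbered 4 (0.797%, against 0.736% of all regions) and control-only regions 12 (2.39%, against 4.38%). All 16 lay in gene bodies, as did 413 of the 502 regions, so their place says little about gene ends. With lists of equal length there were 7 of each. The 4 BRG1-only regions of the full lists lay in KCNN2, KCNK12, KCNN3 and KCNK1, all at percentiles of 30.8 or less. Of the 12 control-only regions 4 lay in KCNMA1, 2 in KCNIP4 and 1 each in KCNQ1, KCNJ4, KCNJ16, KCNAB1, KCNMB3 and KCNH7. KCNMA1 held 51 of the 502 regions and KCNIP4 held 31.

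The differing regions were weak. The one with the highest rank was control-only, in KCNJ4, a neuronal inward rectifier, on chromosome 5 from 9529573 to 9529866, at 34.0 in control 1 and 43.8 in control 4. The strongest BRG1-only region, in KCNN2, ran on chromosome 2 from 118854757 to 118855022 at 30.8 in BRG1 1 and 19.4 in BRG1 4. The end of KCNJ4 itself was called in every library and stood at 57.5, 61.0, 66.0 and 58.6. KCNK1, a weakly conducting leak channel gene with a BRG1-only region at 19.7 in BRG1 1 and 28.3 in BRG1 4, had its end at 40.8, 39.6, 49.1 and 47.8. KCNAB1, a beta subunit gene with a control-only region at 27.8 and 23.5, had its end at 57.3, 56.3, 36.8 and 41.7. KCNJ16 had no end peak, and its control-only region stood at 22.0 and 26.0. In KCNMA1 the control-only regions had mean percentiles of 8.58 to 28.5. Regions missing in 1 library alone numbered 40 for BRG1 4, 17 for BRG1 1, 7 for control 4 and 6 for control 1. Among all regions those shares were 6.33%, 2.72%, 1.21% and 1.03%. With a library left out a call needed fewer libraries, so higher counts follow from the rule. BRG1-only and control-only KCN regions numbered 11 and 41 without control 1, 10 and 37 without control 4, 21 and 52 without BRG1 1, and 19 and 28 without BRG1 4.

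Other genes of excitable cells were counted in the same way, beside the 68.9% of all genes open in all 4 libraries. Voltage-gated sodium channel genes, which start the action potential, were open at an end in all 4 libraries at 7 of 12, and calcium channel genes at 14 of 23. HCN pacemaker genes were open at 4 of 4. In median percentile the open genes of these lists stood at 69.3, 51.4 and 66.6, all below the 89.2 of all genes, as did the KCN genes. SCN1A, SCN10A and SCN2B had no end peak in any library, whereas SCN4A, SCN8A and SCN9A had one in all 4. Genes of KATP receptor subunits and ion transporters were open at 10 of 11 with a median percentile of 81.7. The receptor subunit genes ABCC8, at 10.8 to 37.3, and ABCC9, at 30.1 to 53.4, were the lowest of these 10 by mean percentile. REST, a repressor of neuronal channel genes outside neurons, was open in all 4 libraries at 71.7, 64.2, 71.7 and 71.1, and 7 of 9 genes of its complex were open.

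The label of the cells was checked against marker genes. Fibroblast markers were open at 11 of 13, with a median percentile of 90.6. Of all genes 68.9% were open, and those had a median of 89.2. COL1A1 stood at 88.2 to 90.7 and COL1A2 at 88.2 to 93.8, whereas COL3A1 stood at 50.4 to 62.0 and DCN had no end peak. Neuron markers were open at 10 of 12 with a median percentile of 66.0, and cardiac and skeletal muscle markers at 5 of 11 with 49.2. Endothelial and immune markers were open at 1 of 5 each, keratinocyte markers at 1 of 4, melanocyte markers at 3 of 5 and smooth muscle markers at 5 of 5. No gene of these marker and channel lists was BRG1-only or control-only at its end. The shares of all genes were 0.203% and 0.523%, so the absence says little about lists this short. Open ends were thus also called in lists of other cell types, and the highest median percentile among the lists was that of the fibroblast markers. That median was close to the 89.2 of all genes, so it adds little on the label. The part of other cells in the KCN calls was not tested.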

How the data were processed

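The authors deposited 1 peak list per ATAC-seq library, in the narrowPeak layout, for 2 BRG1 and 2 control libraries. Per the submitters' processing notes the build was Sscrofa11.1, and FastQC, BWA, Bowtie, SAMtools and MACS2 are listed without versions or roles. Each peak's fold is a ratio deposited by the authors. Its −log10 p and q values and its score, also deposited (the whole part of 10 times the −log10 q in 99.9% of peaks), were used only within a list. The lowest −log10 q was 1.31 to 1.35. Not given in the sources used here are the depth, any Tn5 shift and the handling of duplicate reads, which can all change the calls.

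Gene positions came from the RefSeq table of the same build. No sequences, strands, exons or UTRs were used here, so none are shown. Calls were computed with Python 3.11.15 and scipy 1.17.1, for all 18722 genes, and were tested on simulated lists. Library values were set against each other with a two-sided exact permutation test.

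The members, lists and classes were chosen with earlier results of these data known. Genes given with values in each library followed a rule: genes whose calls differ between libraries (the 12 with the highest mean percentile of those regions), the 2 strongest and the weakest open end of each class, the 2 genes per class without an end call with the most body peaks, the longest without any peak, and 14 fixed genes. The values of some genes are not reported here. Other single genes, and the body regions shown, were chosen after their values were seen. Alternatives were a −log10 q of at least 5, lists of equal length (90851 peaks), a window of 3 kb, the summit in the window, overlap of 50% of the shorter interval, leaving out genes with shared end windows, and leaving out each library.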

Additional observations from a re-analysis of the deposited data

How the results depend on the processing

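Of all 90 genes, 47 to 71 were open in all 4 libraries under the alternatives run and 12 (window of 3 kb) to 30 in none, with 53 and 27 as reported; of the 70 genes sharing no end window, 41 and 19 were. With lists of equal length the differences of BRG1 minus control turned, to 0.5 genes with an end peak, 4.5 peaks and 1893 bp under peaks, and with a window of 3 kb the first was 0. Leaving out each library gave −4.5 to −0.5 genes, −57 to −27 peaks and −1118.5 to 78.5 bp, the last turning without BRG1 1. BRG1-only ends numbered 1 (KCNMB4, whose summits lay near the window's edge) when the summit had to lie in the window, and 0 to 1 when a library was left out (KCNK10 without control 1, KCNJ5 without BRG1 1). Control-only ends numbered 0 to 4 in that case, among them KCNK2 without control 1, KCNE2 without control 4, and KCNJ14, KCNK3 and KCNQ3 without BRG1 1. BRG1-only regions numbered 2 at a −log10 q of at least 5, and BRG1-only and control-only regions 7 and 7 with lists of equal length. They ranged from 10 to 21 and from 28 to 52 when a library was left out, since a call then needed fewer libraries. Numbers 1 and 4 recur in both groups, and deviations of same-numbered libraries in covered length correlated at −0.0923 over 18722 genes, and nothing in the labels states a pairing. With replicate number as a block (replicate block) the differences were −2.5 genes, −42 peaks and −520 bp, as without it. The exact sign-flip p were 0.50, 0.50 and 1.00, the smallest possible being 0.5. The block could therefore not have changed a call, and it says nothing on how firm the calls are. Of all recomputed values, 59 stayed on the same side or, for counts, within 1.5 times, while 18 moved and 5 turned or reached 0; the cause was not tested.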
